A study of Mus musculus with 2 samples.

Results

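The cells described here are glutamatergic neurons of the mouse thalamus whose nuclei carried RNA of Col12a1, mostly together with Ror1. They were chosen from single-nucleus RNA-seq (snRNA-seq) counts by a rule on measured values. A nucleus was a member if it held at least 1 unique molecular identifier (UMI) of Slc17a6 or Slc17a7, none of Gad1 or Gad2, at least 1 of Col12a1, and at least 3 over Col12a1, Ror1, Fbln1 and Fam20a. A UMI marks 1 captured RNA molecule. The rule found 1382 members among 18231 glutamatergic nuclei and 38150 nuclei in all. The sham library gave 721 members and the injury library 661.

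The study compared the thalamus of mice after cortical ablation injury (CAI), in which sensory and motor cortex was aspirated, with that of sham-operated mice, which received a burr hole and no ablation. All mice were female C57BL/6J animals aged 3 months, and no allele or drug separated the groups. Tissue of the operated side was taken on day 21 after surgery. Each group was 1 library made from nuclei pooled from 4 mice, so no difference between the libraries has a replicate check, and none could be tested. Surgery, pool and library cannot be told apart. Intervals given below are exact 95% binomial intervals of the UMI split or of a share of nuclei, and they cover counting error only.

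Most neurons of the rodent thalamus are glutamatergic and send axons to the cortex, and ablation of the cortex cuts the axons of those that end there. These cells use the vesicular glutamate transporter of Slc17a6, and in adult thalamus many also use that of Slc17a7. Col12a1 encodes the alpha chain of type XII collagen, a fibril-associated collagen of the extracellular matrix. Ror1 is a receptor tyrosine kinase-like protein that binds Wnt ligands. Fbln1 encodes fibulin 1 of the matrix, Fam20a a pseudokinase of the secretory pathway that aids its partner kinase Fam20c, C1ql3 a secreted synaptic protein of the C1q family, and Pcsk5 a proprotein convertase.

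On GRCm38 (annotation of GENCODE M21), Col12a1 lies on chromosome 9 from 79598991 to 79718831 on the minus strand, and Ror1 on chromosome 4 from 100095791 to 100444765 on the plus strand. C1ql3 lies on chromosome 2 from 13003457 to 13011806 and Pcsk5 on chromosome 19 from 17432319 to 17837632, both on the minus strand. The annotated antisense gene 4930562D21Rik overlaps Col12a1, Gm12701 and Gm12706 overlap Ror1, and C1ql3 and Pcsk5 also overlap other annotated genes. Whether counting used the strand was not stated, so reads of such partners cannot be told apart from those of the named gene. Fbln1, on chromosome 15, and Fam20a, on chromosome 11, had no such overlap.

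The 2 libraries held 16390 and 21828 barcodes, of which 16373 sham and 21777 injury nuclei passed the filter on genes and mitochondrial share. Median depth over all nuclei was 7190 UMIs in the sham library and 6810 in the injury library. Members were deeper, with medians of 11073 and 12018 UMIs against 9045.5 and 9205 in the other glutamatergic nuclei. Member totals ranged from 2357 to 45986 UMIs in the sham and from 3149 to 43804 in the injury library. The libraries shared 101 barcodes. No barcode was a member in both libraries, and 7 members carried a shared barcode. Scrublet, which scores nuclei by their likeness to simulated doublets, called 18.6% of sham and 24.2% of injury members, against 14.1% and 18.8% of the other glutamatergic nuclei.

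In the sham library 4.4% of nuclei were members (4.09 to 4.73), and in the injury library 3.04% were (2.81 to 3.27). Of glutamatergic nuclei they made up 8.31% (7.74 to 8.91) in the sham and 6.92% (6.42 to 7.45) in the injury library. Each pair of intervals was apart, with the share lower in the injury library. A rule on UMI counts finds more members in deeper nuclei. With every nucleus thinned to 3000 UMIs, and 2372 sham and 4260 injury nuclei left out as shallower, 137 of 14001 sham nuclei (0.979%, 0.822 to 1.16) and 110 of 17517 injury nuclei (0.628%, 0.516 to 0.756) met the rule. As a share of glutamatergic nuclei the thinned values were 2.80% (2.36 to 3.30) and 2.10% (1.73 to 2.53), with intervals that overlapped. The intervals of the share of glutamatergic nuclei also overlapped with 4 or more UMIs of the rule genes required (6.19 to 7.25 and 5.35 to 6.30), with 6 or more (4.34 to 5.25 and 4.02 to 4.86) and with Ror1 required (5.74 to 6.76 and 5.27 to 6.21). The share of glutamatergic nuclei was thus the lower value in the injury library under each. Its intervals were apart under the rule as given, without called doublets (7.30 to 8.55 and 5.95 to 7.06) and without the mixed clusters (7.39 to 8.58 and 5.82 to 6.86). Fewer such cells and less RNA of the rule genes per cell cannot be told apart. The nuclei that the shares are taken of also differed in kind. Among clusters of glutamatergic nuclei (below), clusters 31 and 32 drew all their 215 and 135 nuclei from injured mice. Clusters 9 and 23 had 239 and 117 sham nuclei against 380 and 206 injury nuclei, while cluster 13 had 337 against 174. Oligodendrocytes numbered 974 (sham) and 2257 (injury). The part of such differences in the shares was not tested.

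Col12a1 was found in 1230 sham and 1093 injury glutamatergic nuclei without a Gad UMI, members and non-members together. Of these, 335 sham and 280 injury nuclei had a summed count of 1 over the 4 rule genes, 174 and 152 had 2, 139 and 106 had 3, and 415 and 423 had at least 6. The counts therefore ran across the threshold without a gap. A further 590 sham and 864 injury nuclei reached 3 over the rule genes but had no Col12a1, and 55 and 74 were left out for a Gad UMI. Among members the median summed count was 6 (sham) and 7 (injury).

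Nuclei just under the threshold, with a summed count of 2, were set beside those just above it, with 3. Pcsk5, which the rule did not use, stood at 77.8 CPM (UMIs of the gene for every 1000000 UMIs of the same nuclei) (sham) and 68.8 (injury) just under it, and at 123 and 86.3 just above it. C1ql3 stood at 29.6 and 17.7 CPM under it and 24.3 and 16.3 above it. St14, a membrane serine protease gene, stood at 3.11 and 4.04 CPM under it and 7.88 and 6.22 above it, and Sema5b, a semaphorin gene, at 36.8 and 29.8 under it and 44.3 and 76.2 above it. The nuclei just outside thus held UMIs of these genes as well, and Pcsk5, St14 and Sema5b had the higher value just inside. No interval was computed for these levels, and those of St14 are low. Of the nuclei just inside, 12.9% (sham) and 20.8% (injury) lay in mixed clusters (defined below), against 6.90% and 9.87% just outside. In clusters 3 and 2 (below) lay 39.6% and 50% of those just inside, against 44.3% and 34.9%.

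Among members of both libraries, 159 (11.5%) held only Col12a1 of the 4 rule genes. Col12a1 with Ror1 alone was the commonest pairing, in 416 members (30.1%). A further 306 (22.1%) held Col12a1, Ror1 and Fam20a. All 4 genes were found in 198 members (14.3%), which came to 88 sham members (12.2%) and 110 injury members (16.6%). Ror1 accompanied Col12a1 in most members, while Fbln1 was the least often detected of the 4.

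The rule genes describe how the members were chosen, and their levels are given with no test. Col12a1 stood at 292 CPM in sham members and 266 in injury members, against 7.59 and 5.42 in the other glutamatergic nuclei. Ror1 stood at 247 and 300 CPM in members against 33.4 and 49.1. Fbln1 stood at 31.4 and 33.1 CPM against 6.55 and 4.77, and Fam20a at 62.3 and 74.7 against 14.6 and 15.3. A UMI of Ror1 was found in 75.0% of sham and 82.8% of injury members, against 14.8% and 18.9% of other glutamatergic nuclei. In oligodendrocytes, which should lack the gene and had median depths of 1630.5 and 1774 UMIs, that share was 1.75% and 2.39%. Col12a1 was found in 1.23% of sham and 0.487% of injury oligodendrocytes. Its level there was 8.23 and 3.48 CPM, beside the 7.59 and 5.42 of the other glutamatergic nuclei. Whether stray Col12a1 UMIs shaped the members' shares was not tested.

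Levels of the label's own markers and of markers of other cell types are given next. C1ql3 stood at 55.2 CPM in sham and 49.1 in injury members against 15 and 12.8 in the other glutamatergic nuclei, and was found in 41.1% and 40.5% of members. Pcsk5 stood at 283 and 285 CPM against 53.2 and 49.8, and was found in 76.7% and 80.2%. In oligodendrocytes, which were shallower, those shares were 1.85% and 2.88% for C1ql3 and 2.16% and 3.19% for Pcsk5. In CPM they held 10.2 and 13.1 of C1ql3 and 22.3 and 21.8 of Pcsk5. C1ql3 and Pcsk5 were thus higher in members of both libraries. That is a description and no check of the label, since the members were chosen with earlier results of these data known. Slc17a6 stood at 244 and 232 CPM in members against 200.4 and 179 in the others, whereas Slc17a7 stood at 6.96 and 10.4 against 38.7 and 46.7. The members were therefore Slc17a6 neurons with little Slc17a7.

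**Figure D1:**
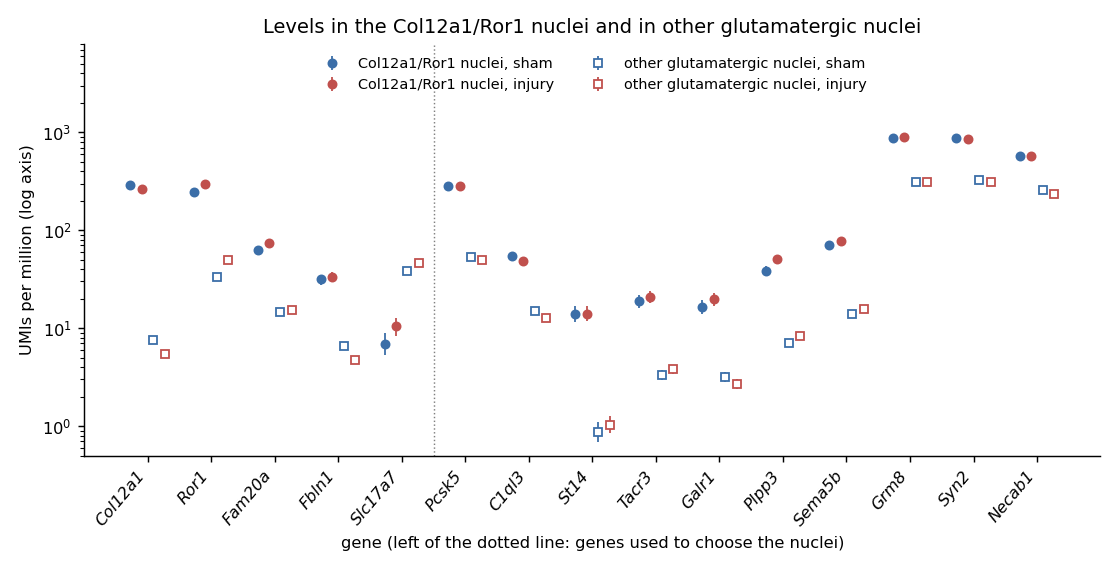
Levels in CPM (log axis) in members (filled circles) and in the other glutamatergic nuclei (open squares) of the sham (blue) and injury (red) library, with exact 95% counting intervals as bars and genes of the rule left of the dotted line. Col12a1 sits at 292 and 266 in members against 7.59 and 5.42 in the others, Slc17a7 lies lower in members, and the libraries lie close together beside the gap between members and others.

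The 10 listed thalamus markers, led by Ntng1 and including the rule gene Slc17a6, summed to 9386 CPM (sham) and 9272 (injury) in members. They summed to 8458 and 7925 in the other glutamatergic nuclei. Habenula markers, led by Nwd2 in members, summed to 145 and 318 CPM in members and to 615 and 803 in the others. Oligodendrocyte markers summed to 82.1 and 158 CPM in members, against 108 and 188 in the others. The cortex markers were led by Mef2c and summed to 216 and 205 CPM, against 210.0 and 199 in the others. Dentate gyrus markers, led by Prox1 in members, stood higher in members, at 506 and 499 CPM against 337 and 336. Astrocyte markers, led by Slc1a2, also stood higher in members, at 371 and 439 CPM against 285 and 290, and microglia markers summed to 98.8 and 104 CPM in members. GABAergic markers were led by Erbb4 and summed to 170 and 219 CPM, against 531 and 544 in the others, with Gad1 and Gad2 at 0 by the rule. Gene by gene, the 8 astrocyte markers with at least 20 UMIs were all higher in the injury members, with a median log2 ratio of 1.74 in members and 1.16 over 10 such genes in the other glutamatergic nuclei. Without the mixed clusters only 2 of these markers had enough UMIs, with a median of 0.22. Habenula, oligodendrocyte, astrocyte and GABAergic markers thus stood higher in the injury than in the sham members, with intervals apart.

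Glutamatergic nuclei were clustered without the rule genes to see where the members fell. The clustering gave 40 clusters, of which 31 held members. Cluster 3 held 601 members (303 sham, 298 injury), which was 43.5% of all members and 51.1% of the cluster's 1177 nuclei. Cluster 2 held 335 members (189 sham, 146 injury), which was 24.2% of all members and 27.3% of its 1225 nuclei. Together they held 936 members (67.7%). Of a member's nearest neighbours 55.6% were members, and of those of other nuclei 3.75%. The members were thus not 1 cluster but fell mainly into a pair of clusters, each shared with nuclei outside the rule.

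Cluster 3 was led by Lgals3, Slc30a3, a vesicular zinc transporter, Galr1, a galanin receptor, Mtnr1a, a melatonin receptor, and St14, a membrane serine protease. Col12a1 and Fbln1 were among its leading genes. Cluster 2 was led by Neb, Pth2r, a parathyroid hormone receptor, Fibin, Sema5b, a semaphorin, and Ephb3, an ephrin receptor, with Col12a1 again among them. Both clusters were close in depth, with member medians of 9866 and 10866 UMIs in cluster 3 and 10214 and 10504.5 in cluster 2 (sham and injury). These leading genes define the clusters and are given as a description.

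In 6 of the 40 clusters more than 50% of nuclei were called doublets, and these are called mixed clusters here. A further 195 members lay in 5 of them. These held 77 sham members (10.7%) and 118 injury members (17.9%), and all of these members were called doublets. Their median depths were 17520 and 17603 UMIs. Cluster 12, led by Calcr and Meis2, held 48 sham and 50 injury members. Cluster 18, led by genes that include Tac2, Chrnb4 and Ano1, held 17 and 32. Cluster 19, with oligodendrocyte genes such as Gjc3 and Aspa, held 7 and 19, and cluster 33, with astrocyte genes such as Aldh1a1 and Slc1a3, held 2 and 12. Of all glutamatergic nuclei, mixed clusters held 596 of 8677 in the sham (6.87%) and 963 of 9554 in the injury library (10.1%), so their share was larger in the injury library among nuclei at large too. The remaining 251 members (152 sham, 99 injury) were spread over 24 clusters.

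**Figure D2:**
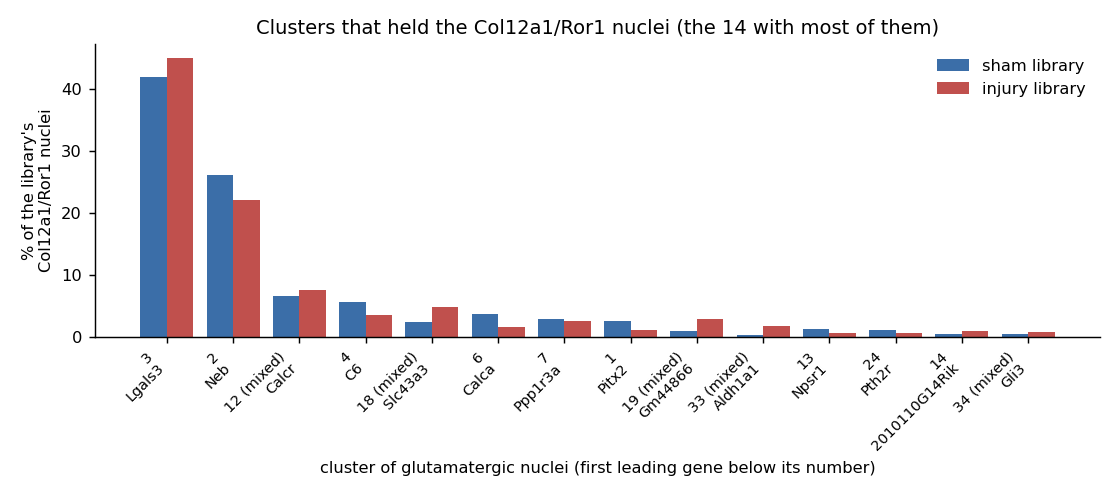
Percent of the sham (blue) and of the injury (red) members that fell in each of the 14 clusters with most members, with the first leading gene below the cluster number and mixed clusters marked. Cluster 3 held 42.0% of sham and 45.1% of injury members and cluster 2 held 26.2% and 22.1%, while each other cluster held under 10%.

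Without the mixed clusters the summed habenula markers were 51.5 CPM in sham and 90.2 in injury members, and the oligodendrocyte markers 52.3 and 78.8. Within cluster 3 the habenula markers were 70.6 and 63.4 CPM, and within cluster 2 they were 19.2 and 23.7. In cluster 3 the habenula sum was led by Calb2, a gene higher in that cluster than in cluster 2 (below). The sum was not higher in injury members there, while Nwd2, given below, had the higher value in the injury library on few UMIs. The oligodendrocyte sum, led by Mbp, stayed higher in the injury library within both clusters, at 57.3 and 81.1 CPM in cluster 3 and at 46.4 and 73.4 in cluster 2. Only 3 of its genes in cluster 3 and 2 in cluster 2 had at least 20 UMIs. These were all higher, 1 in each cluster with an interval above 0. The astrocyte sum stayed higher as well, at 359 and 412 CPM in cluster 3 and at 408 and 498 in cluster 2. Slc1a2 led that list and was its only gene with at least 20 UMIs in either cluster, so no rise over the list was shown there. GABAergic markers stood at 99.99 and 83.8 CPM without the mixed clusters, at 31.1 and 32.4 in cluster 3 and at 15.3 and 36.7 in cluster 2. The part of these cell types in single-gene values was not tested.

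Members of cluster 3 and cluster 2 were set side by side, as a description, since the clusters were made from these genes. Of 11348 genes, 269 (2.37%) were at least 2-fold higher in cluster 3 in both libraries and 163 (1.44%) in cluster 2. Ror1 stood at 443 CPM in sham and 476 in injury members of cluster 3, against 169 and 175 in cluster 2. Col12a1 differed little, at 346 and 325 CPM against 389 and 317. C1ql3 stood at 89.4 and 80.2 CPM in cluster 3 and at 46.4 and 25.5 in cluster 2. The rule asks for a Col12a1 UMI in every member, so its level in all nuclei of the clusters, members or not, is given below. Ror1, Fam20a, Fbln1, C1ql3 and Pcsk5 were higher in members of cluster 3.

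Cluster 3 members carried Rab3b, which encodes a GTPase of synaptic vesicles, at 21.6 and 25 CPM, with 2 UMIs in sham and none in injury members of cluster 2. Vwa5b1 stood at 42.5 and 43.8 CPM against 1.97 and 0.592. The calcium-binding protein gene Calb2 stood at 62.0 and 52.3 CPM against 4.44 and 5.33, the kainate receptor subunit gene Grik1 at 665 and 635 against 111 and 116, the kappa opioid receptor gene Oprk1 at 51.8 and 42.9 against 9.37 and 5.92, and the cannabinoid receptor gene Cnr1 at 59.8 and 51.5 against 10.4 and 8.88. These genes of receptors and calcium binding set cluster 3 apart in both libraries.

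Cluster 2 members carried Npsr1, the neuropeptide S receptor gene, at 123 and 149 CPM, against 5.24 and 1.99 in cluster 3. Syt2, a calcium sensor of fast transmitter release, stood at 30.6 and 50.3 CPM against 2.77 and 2.28. Lef1, a transcription factor of the Wnt pathway, stood at 439 and 527 CPM against 188 and 192. The kinase gene Prkcd stood at 39.0 and 65.7 CPM against 5.55 and 6.83, and the collagen gene Col24a1 at 45.4 and 32.0 against 6.17 and 2.56. Each of these was higher in cluster 2 in both libraries.

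Members were then compared with the other glutamatergic nuclei over all genes, which describes what goes with the rule and is no test. Of 13417 genes with at least 50 UMIs in members, 207 (1.54%) were at least 2-fold higher in members in both libraries and 339 (2.53%) at least 2-fold lower. Outside the rule genes, the highest ratios belonged to Gm10635 and to St14, which stood at 14 and 14.1 CPM in members against 0.876 and 1.04 in the others. St14 overlaps the annotated gene Gm16071. A UMI of St14 was found in 12.8% and 15.3% of members, 0.84% and 0.93% of other glutamatergic nuclei and 0.10% and 0.18% of oligodendrocytes.

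Among the other genes with the highest ratios, Tacr3, the receptor of neurokinin B, stood at 18.9 CPM in sham and 21.0 in injury members against 3.32 and 3.8 in the others, and was found in 15.1% and 16.6% of members. Galr1 stood at 16.6 and 19.7 CPM against 3.18 and 2.70. At levels this low most nuclei are expected to hold no UMI, so the share of members that express these genes cannot be read from it. Plpp3, a lipid phosphate phosphatase gene, stood at 38.7 and 50.3 CPM against 7.11 and 8.28, Sema5b at 70.6 and 77.3 against 13.9 and 15.8, Tmem26 at 22.0 and 19.5 against 3.62 and 3.24, and Slc30a3 at 11.6 and 13.0 against 2.55 and 2.39. Sema5b was found in 47.9% and 52.5% of members. The genes lowest in members included Sycp2l, at 0.786 and 0.112 CPM against 6.95 and 10.1, and Serinc2, at 2.02 and 1.91 against 10.3 and 10.7.

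The gene lists show which functions went with these ratios. Over all 13415 genes compared by list the median log2 ratio of members to others was -0.02 in each library, with 211 genes at least 2-fold higher and 330 at least 2-fold lower in both. Of 43 measured matrix genes 6 were at least 2-fold higher and 9 lower. The higher ones were Col12a1 and Fbln1 of the rule, Col8a1, Col25a1, the laminin gene Lama3 (27.5 and 36.3 CPM against 10.1 and 11.5) and Thsd7b. Of 12 measured genes of the secretory pathway 2 were higher, Fam20a of the rule and Pcsk5. Matrix genes past the fold thus went in both directions, and the list as a whole was not tested.

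Of 17 measured Wnt receptors and pathway genes Ror1 of the rule and Fzd8 were at least 2-fold higher. Ror2, the paralogue of Ror1, was lower at 4.83 and 7.84 CPM in members against 16.1 and 19.0 in the others. No Wnt ligand or secreted Wnt regulator of 10 measured was higher, and 3 (Wnt4, Wnt9b and Dkk3) were lower. Of 14 genes of the C1q-like and cerebellin list C1ql3 was higher and Cbln1 and Cbln2 were lower. Most measured genes of these 3 lists thus lay within 2-fold of the other glutamatergic nuclei.

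Among 22 glutamate receptor genes only the metabotropic receptors Grm8 (868 and 897 CPM against 314 and 312) and Grm2 (21.0 and 19.1 against 10.3 and 9.13) were at least 2-fold higher. Of 14 GABA receptor genes none passed that fold. Of 24 presynaptic genes Syn2, a synapsin, was higher at 872 and 860 CPM against 326 and 311, and Sv2c was lower. No other gene of these 3 lists was at least 2-fold higher in both libraries.

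Of 38 measured transcription factors of thalamic identity Lhx2 (51.3 and 45.2 CPM against 20.1 and 16.3) and Gbx2 (3.59 and 3.47 against 1.59 and 1.32) were higher, and 6 were lower (Pou4f1, Esrrg, Nr4a2, Ebf1, Ebf3 and Nfib). Of 38 axon guidance genes Sema5b, Sema6d and the netrin receptor gene Unc5b were higher and 7 were lower. Of 30 measured genes of neuropeptides and modulator receptors Tacr3, Oprk1, Drd2 and Cnr1 were higher and 8 were lower. Of 10 measured calcium-binding genes Necab1 was higher at 570 and 577 CPM against 255 and 233, and Necab3 and Hpca were lower. Of 8 measured habenula markers 7 were lower in members.

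Injury and sham libraries were compared within the members. Of 12946 genes with at least 50 UMIs, 60 (0.463%) were at least 2-fold higher in the injury library and 47 (0.363%) at least 2-fold lower. In the other glutamatergic nuclei, which were far more numerous, 296 of 18842 genes (1.57%) were at least 2-fold higher and 33 (0.175%) lower. Those nuclei also included nearly all of clusters 31 and 32, which came from the injury library alone. The part of these clusters in the count was not tested. The median log2 ratio over all genes was -0.00 in members and 0.00 in the others. Few genes thus differed 2-fold in members. Without the mixed clusters 21 of 12216 genes (0.172%) were at least 2-fold higher and 51 (0.417%) lower. Of the 60 and 47 genes, 26 and 35 were past that fold there in the same direction, with no minimum of UMIs set for that set, so more of the lower than of the higher genes held without those nuclei.

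The marker genes of the group differed little between the libraries over all members, in whom the rule itself holds Col12a1 up. They were therefore also read over all nuclei of each cluster, members or not. In cluster 3 Col12a1 stood at 185 CPM (sham) and 195 (injury) (log2 ratio 0.08, -0.04 to 0.20), Ror1 at 319 and 358 (0.17, 0.08 to 0.26) and C1ql3 at 98.1 and 89.5 (-0.13, -0.30 to 0.04). In cluster 2 Col12a1 stood at 160 and 94 CPM (-0.77, -0.91 to -0.62), Ror1 at 82.4 and 64.9 (-0.34, -0.53 to -0.16) and C1ql3 at 34.8 and 14.8 (-1.24, -1.59 to -0.89). The markers were thus lower in the injury library in cluster 2, and in cluster 3 either close in both libraries or, for Ror1, slightly higher in the injury library.

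Fam20a, Fbln1 and Pcsk5 were likewise lower in the injury library in cluster 2. In cluster 2 Fam20a stood at 31.4 and 18.2 CPM (-0.79, -1.12 to -0.45), Fbln1 at 14 and 9.89 (-0.50, -0.98 to -0.02) and Pcsk5 at 135 and 102 (-0.40, -0.55 to -0.25). In cluster 3 Fam20a stood at 108 and 114 CPM (0.08, -0.08 to 0.24) and Fbln1 at 51.5 and 47.9 (-0.10, -0.34 to 0.13). Nuclei with a Col12a1 UMI made up 50.2% of sham and 57.1% of injury nuclei in cluster 3, and 50.2% and 39.3% in cluster 2. The difference between the clusters was not tested, and a change in which neurons make up cluster 2 cannot be told apart from a lower level within them.

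**Figure D3:**
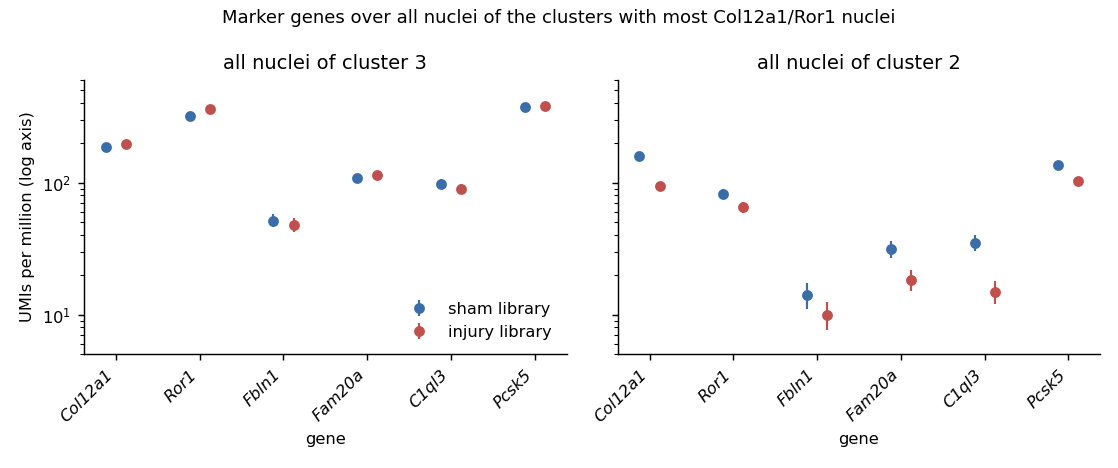
Levels in CPM (log axis) of the rule genes Col12a1, Ror1, Fbln1 and Fam20a and of C1ql3 and Pcsk5 over all nuclei of cluster 3 (left) and cluster 2 (right), with 1 point for each library and bars for the exact 95% counting interval. In cluster 3 the sham and injury points lie close together, as for Col12a1 at 185 and 195, and in cluster 2 the injury point lies lower for each gene, as for Col12a1 at 160 and 94.

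Among genes with at least 50 UMIs in members, the largest ratio toward injury was that of Mertk, a receptor kinase of phagocytosis known from glia, with 8 UMIs in sham and 51 in injury members (log2 ratio 2.67, 1.58 to 3.96). It was also higher in the other glutamatergic nuclei (1.61) and without the mixed clusters (2.32), but clusters 3 and 2 held only 3 and 2 of its UMIs, all in the injury library. Cluster 40, with Inpp5d and Mertk as leading genes, was not counted as mixed, though 47.5% of its nuclei were called doublets. It held 0 sham members and 1 injury member, and its part in the Mertk ratio was not tested. Chat, the enzyme of acetylcholine synthesis and a habenula gene, had 9 and 42 UMIs (2.22, 1.16 to 3.44), of which cluster 3 held 3 and 2, and cluster 2 none. Slc1a3, the astrocyte glutamate transporter, had 13 and 51 UMIs (1.97, 1.07 to 2.97). Mertk, Chat and Slc1a3 are thus genes known from cell types other than the members.

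Aldh1a1, known from astrocytes, had 22 sham and 82 injury UMIs (1.90, 1.2 to 2.65), and its ratio was 0.95 without the mixed clusters. Ano1, a chloride channel gene, had 58 and 195 UMIs (1.75, 1.32 to 2.20) and a ratio of 1.68 without the mixed clusters. Bcas1, known from oligodendrocytes, had 21 and 68 UMIs (1.69, 0.97 to 2.47) and a ratio of 0.51 without the mixed clusters. F3, the gene of tissue factor, had 13 and 42 UMIs and a ratio of 0.41 without the mixed clusters. Prkcq, a protein kinase C gene, had 42 and 130 UMIs (1.63, 1.12 to 2.17) and 1.33 without the mixed clusters. Ano1 was among the leading genes of cluster 9, which was led by Chat, and Prkcq among those of cluster 23. Neither cluster was mixed, and both were high in Nwd2 (below). The ratios of Aldh1a1, Bcas1 and F3 thus lay under 2-fold without the mixed clusters. Within cluster 3 these 5 genes had between 1 and 7 UMIs in each library, too few to read a ratio, so most of their UMIs came from other members.

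Nwd2, the habenula marker that supplied most UMIs of that list in members, had 882 UMIs (99 CPM) in sham and 2334 (262 CPM) in injury members (1.40, 1.29 to 1.51), against a ratio of 0.40 in the other glutamatergic nuclei. Without the mixed clusters the ratio was 1.89. In cluster 3, however, Nwd2 stood at 4.62 and 7.96 CPM and in cluster 2 at 10.9 and 15.4, from 15 and 28 UMIs and from 22 and 26, so nearly all of its UMIs came from members outside the main clusters. Without the mixed clusters its UMIs were 98 and 327. Nwd2 stood at 2731 CPM over all nuclei of the mixed cluster 18, and at 4530 to 9428 in clusters 9, 11, 23 and 30, which were not mixed and of which only cluster 23 held members (0 sham, 2 injury). The transcript Gm26512 was higher in each set, with 16 and 52 UMIs in members (1.70), 1 and 9 in cluster 3 (3.05, 0.20 to 8.51) and 1 and 7 in cluster 2 (3.07, 0.11 to 8.56), and it overlaps Dio2.

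**Figure D4:**
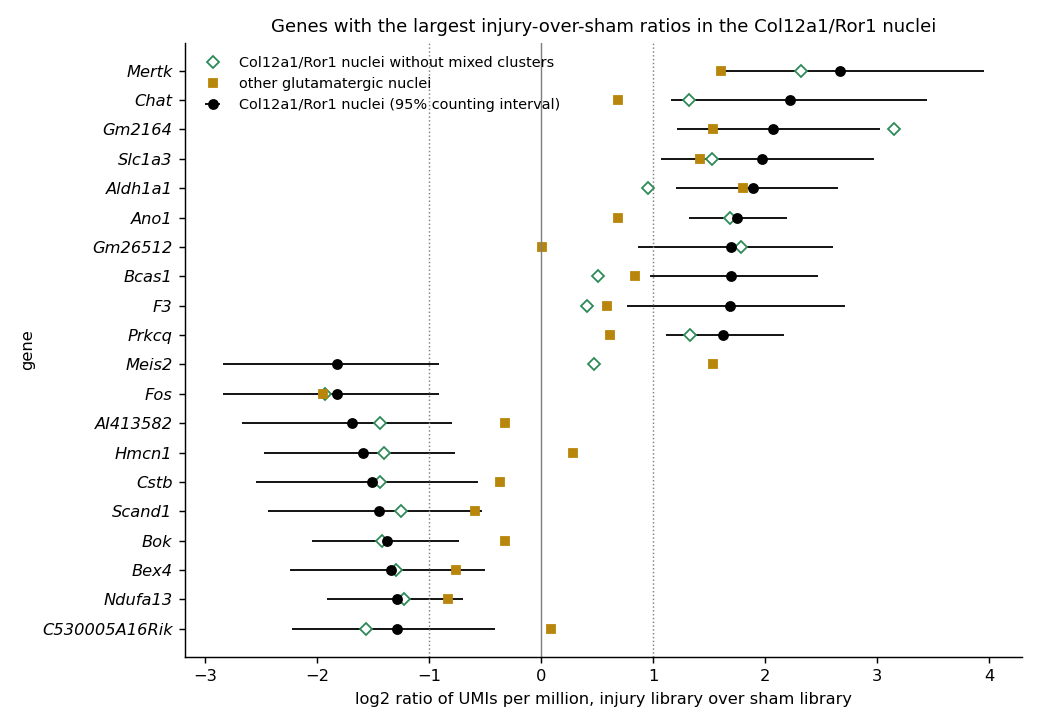
Log2 ratio of CPM, injury over sham, for the 10 highest and the 10 lowest genes among those with an interval that leaves out 0, in members (black, with the exact 95% counting interval), in members without the mixed clusters (green diamonds) and in the other glutamatergic nuclei (ochre squares); dotted lines mark 2-fold. Bcas1 lies at 1.69 in members and 0.51 without the mixed clusters, Meis2 changes side, and Fos lies at -1.83, -1.93 and -1.95 in the sets.

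Among the genes lower in the injury library, Fos, an immediate early gene induced by neuronal activity, had 46 sham and 13 injury UMIs (-1.83, -2.84 to -0.91). It was lower in the other glutamatergic nuclei (-1.95), without the mixed clusters (-1.93), in cluster 3 (21 and 3 UMIs) and in cluster 2 (9 and 1). A UMI of Fos was found in 4.99% of sham and 1.66% of injury members, 3.76% and 1.36% of the others, and 0.51% and none of the oligodendrocytes. Meis2 had the same counts, 46 and 13 UMIs (-1.83), but was higher in the other glutamatergic nuclei (1.53) and at 0.47 in members without the mixed clusters. The lower Fos was thus seen in each set of nuclei and the lower Meis2 was not.

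Bok, a Bcl-2 family gene, had 75 sham and 29 injury UMIs (-1.37, -2.04 to -0.74), with -1.42 without the mixed clusters, -1.36 in cluster 3 (19 and 8 UMIs) and -1.27 in cluster 2 (26 and 9), against -0.32 in the others. Ndufa13, a subunit of respiratory complex I that overlaps other annotated genes, had 83 and 34 UMIs (-1.29, -1.91 to -0.70), with -0.94 in cluster 3 (23 and 13 UMIs), -1.44 in cluster 2 (26 and 8) and -0.83 in the others. The protease inhibitor gene Cstb had 37 and 13 UMIs (-1.51) and Bex4 43 and 17 (-1.34). Hmcn1, a matrix gene, had 51 and 17 UMIs (-1.59), but only 1.66% of sham and 1.36% of injury members held any. The ratio of Hmcn1 was -1.40 without the mixed clusters (38 and 13 UMIs, -2.43 to -0.46), -0.00 without called doublets and -0.80 in members with 3000 to 15000 UMIs. The other 8 of the 10 lowest genes, leaving out Meis2, stayed below -1 without the mixed clusters and without called doublets, on low counts of UMIs. Whether members differed from other glutamatergic nuclei in any of these ratios was not tested.

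Within cluster 3, 10098 genes had at least 50 UMIs in members, and 27 (0.267%) were at least 2-fold higher and 50 (0.495%) lower in the injury library. Cluster 2 had 24 (0.302%) higher and 52 (0.654%) lower of 7950. No gene was past the higher fold in both clusters, and 2 were past the lower fold in both. In cluster 3 Cox8a, a cytochrome c oxidase subunit gene, had 101 and 40 UMIs (-1.45), and Nr4a3, an immediate early nuclear receptor gene, had 52 and 20 (-1.49). In cluster 2 Alk, a receptor tyrosine kinase gene, had 45 and 105 UMIs (1.49), and Tmsb10, a thymosin, had 50 and 11 (-1.92). With so few genes past the fold in each cluster, little overlap can be read from these counts.

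Of the gene lists, that of ribosomal protein genes was the longest and had the most genes with an interval below 0. Of 76 genes 72 were lower in the injury members, 45 with an interval below 0 and none with one above. Over all 15130 genes with at least 20 UMIs, 1557 (10.3%) had an interval above 0 and 1560 (10.3%) below. The median log2 ratio was -0.43 against -0.00 over all these genes, of which 7327 were higher and 7803 lower. Summed over the list the ratio was -0.39 (-0.43 to -0.35). The median was -0.44 in the other glutamatergic nuclei, -0.44 without the mixed clusters, -0.33 in cluster 3 and -0.51 in cluster 2. In members found after thinning, where only 11 of these genes had enough UMIs, it was -0.01. Rps25, which overlaps neighbouring genes, had 82 and 39 UMIs (-1.07). Ribosomal protein genes were thus lower in injury members, with a median close to that of the other glutamatergic nuclei, except in the thinned nuclei. Of 32 translation factors 24 were lower with a median of -0.08, among them Eif5a (127 and 61 UMIs, -1.06) and Eif4a2 (311 and 181, -0.78).

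Of 15 measured immediate early and activity genes 13 were lower in injury members, 9 with an interval below 0 (10.3% of all genes) and none above. The median was -0.51 in members, -0.69 over 12 genes in cluster 3 and -0.28 over 8 genes in cluster 2. In the other glutamatergic nuclei it was -0.24 over 20 genes, so these medians rest on different genes. Beside Fos, the transcription factor gene Egr1 had 33 and 10 UMIs (-1.72), Npas4 93 and 60 (-0.63) and the neurotrophin gene Bdnf 388 and 289 (-0.43). Of 25 listed genes of axon injury and stress 13 had enough UMIs. Of these 9 were lower, with a median of -0.12, among them Atf4, the integrated stress response factor, at -0.59. The measured injury-response genes of this list were thus not higher as a group in the members on day 21.

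Genes of the matrix and of Wnt signalling, the families of Col12a1 and Ror1, were near the median of all genes. Of 47 matrix genes 22 were higher and 25 lower, with a median of -0.04, and Col24a1 had a ratio of -0.86. The interval lay above 0 for 3 of them and below 0 for 9, against 10.3% of all genes each. Of 17 Wnt receptors and pathway genes 9 were higher and 8 lower (0.02). Dvl1, the Dishevelled gene that relays the Wnt signal, had 466 and 320 UMIs (-0.54), while Ror1 of the rule had 0.28. Of 12 Wnt ligands and regulators 6 were higher and 6 lower (0.00), with Wnt5b at 0.60 and Wnt9a at -0.57. These families thus held single genes in either direction.

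Of 14 C1q-like and cerebellin genes 11 were lower, with a median of -0.08. Of 22 glutamate receptor genes 14 were higher, with a median of 0.05, 9 with an interval above 0 and 4 with one below (10.3% of all genes each). Intervals are narrower for genes with more UMIs. These 22 held 136040 sham and 136405 injury UMIs, against 8874594 and 8888642 over 15130 genes, so the shares are not alike in depth. In the other glutamatergic nuclei 11 lay above and 9 below. The kainate receptor subunit Grik4 was at 0.40 (0.28 to 0.53), with 0.28 in cluster 3 and 1.0 in cluster 2. Of 14 GABA receptor genes 9 were lower (-0.07), and the GABA-B receptor subunit Gabbr2 was higher at 0.36. Firing channels had a median of 0.05 over 23 genes and axon guidance genes of 0.08 over 38, and without the mixed clusters these medians were -0.02 and -0.04. The guidance receptor Robo3 had 65 and 162 UMIs (1.32, 0.89 to 1.75) in all members and 14 and 28 without the mixed clusters (1.15, 0.17 to 2.19), with 8 and 6 in cluster 3 and 3 and 1 in cluster 2. Presynaptic (-0.02), postsynaptic (0.03), cadherin (-0.07), calcium-binding (0.02), secretory (-0.03), neuropeptide (-0.00) and identity factor genes (0.06) likewise had medians within 0.10 of 0.

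**Figure D5:**
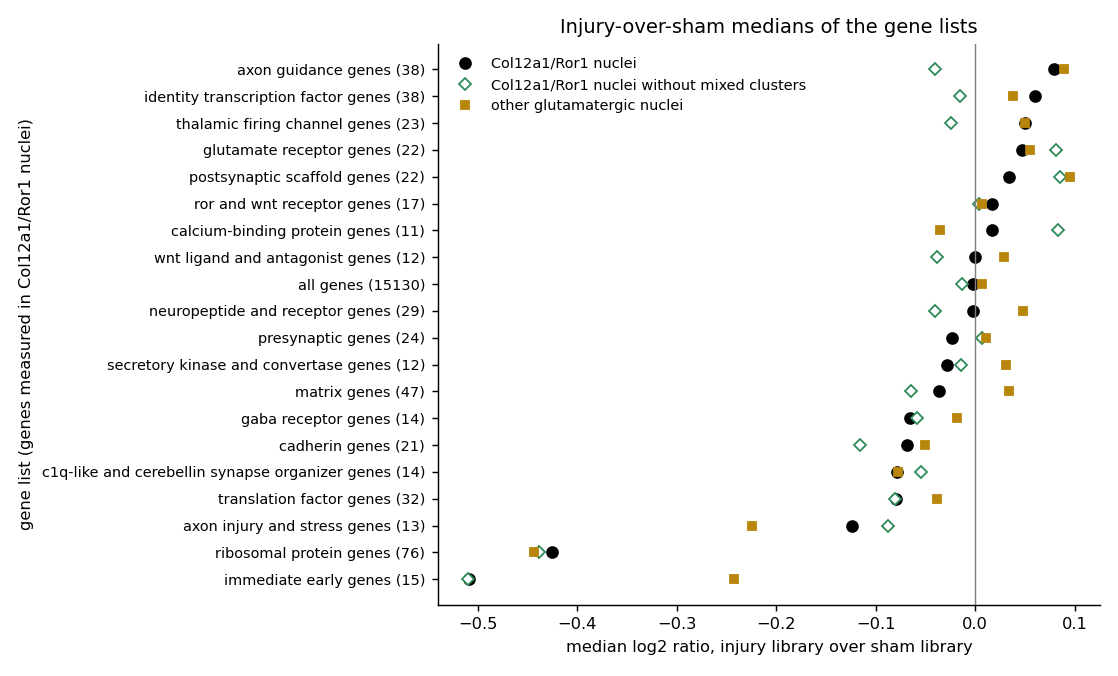
Median log2 ratio of injury over sham for each gene list, with the number of genes measured in members in brackets, in members (black circles), in members without the mixed clusters (green diamonds) and in the other glutamatergic nuclei (ochre squares). Immediate early genes (-0.51 in members) and ribosomal protein genes (-0.43) lie furthest from 0, and the other lists of members lie between -0.12 and 0.08.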

How the data were processed

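Nuclei were stained with propidium iodide, sorted and made into droplet-based 3′ libraries. The authors counted UMIs with Cell Ranger 6.0.2 on GRCm38, and the 2 deposited tables hold raw UMI counts per gene and barcode, with no normalization. The submitters' processing notes also name Seurat 4.0 and bcl2fastq. Annotation release, use of intronic reads and use of strand are not given in the sources used here. Of 32285 gene rows, 32158 took a symbol from GENCODE M21.

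Nuclei with 200 to 7500 genes and at most 2% mitochondrial UMIs were kept, which is the filter of the study. Groups were taken from the treatment in the labels. The members and the gene lists were chosen with earlier results of these data known. UMIs were summed over members and divided by their total (CPM), and log2 ratios of injury over sham were given exact binomial intervals (numpy 2.4.6, scipy 1.17.1). A gene counted as past the fold at a log2 ratio of at least 1 or at most -1 with at least 50 UMIs over both libraries. Lists used genes with at least 20 UMIs and a prior of 0.5 UMI. With 1 library a group no p-value was computed. Oligodendrocytes, used for free RNA, held at least 10 UMIs of that cell type's markers. The ratio and its interval were checked on simulated data.

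Doublets were kept. Scrublet (scanpy 1.11.5) called the highest scores at 0.8% per 1000 nuclei of a library, so their number is set by that rate. Glutamatergic nuclei were clustered with igraph 0.11.9 on 2000 variable genes without the rule genes, 30 components and 15 neighbours. Named genes were the rule and marker genes, the 15 highest and 8 lowest ratios of members to other glutamatergic nuclei, the 10 highest and 10 lowest injury ratios with an interval that leaves out 0, and up to 4 of each list (2 by injury ratio, 2 by level). Genes outside that rule, such as those within clusters or counted in a list, were named after their values were seen. Alternatives covered the rule, doublets, depth, scaling, the filter on UMIs, single clusters and members with cortex markers. Results for some genes are not reported here.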

Additional observations from a re-analysis of the deposited data

How the results depend on the processing

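No paired analysis was possible because no result comes from a test and a group is 1 library. Leaving out the mixed clusters and keeping only members of cluster 2 were alternatives chosen after seeing the data. The members' share of sham nuclei, sham glutamatergic nuclei, injury nuclei and injury glutamatergic nuclei was 3.55%, 6.71%, 2.55% and 5.81% at 4 or more UMIs of the rule genes, 2.53%, 4.78%, 1.94% and 4.43% at 6 or more, 3.30%, 6.23%, 2.51% and 5.73% with Ror1 required, and 0.979%, 2.80%, 0.628% and 2.10% after thinning. Without called doublets the share of injury nuclei was 2.80%. Without the mixed clusters the shares were 4.08% of sham nuclei, 2.61% of injury nuclei and 6.32% of injury glutamatergic nuclei. The injury share was the lower value under each of these, with overlapping intervals for glutamatergic nuclei at 4 and at 6 UMIs, with Ror1 required and after thinning.

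Against 60 higher and 47 lower of 12946 genes, thinning gave 17 and 10 of 2714, a minimum of 20 UMIs 210 and 170 of 15134, one of 200 UMIs 9 and 2 of 8727, and no minimum 2722 and 2082 of 23307. Fewer genes were higher without called doublets (22 of 11876) and without the mixed clusters (21 of 12216). The same held in cluster 3 (27 of 10098) and in cluster 2 (24 of 7950). The count lower stayed within 1.5 times in each of these sets. As a share of genes it was 0.495% in cluster 3 and 0.654% in cluster 2, against 0.363% in all members. The median of firing channel genes fell below 0 without called doublets (-0.0137), after thinning (-0.0915), in cluster 3 (-0.0584), without the mixed clusters (-0.0245) and in cluster 2 (-0.0399). That of identity factors did so without called doublets (-0.0607), after thinning (-0.00141), in cluster 3 (-0.0352) and without the mixed clusters (-0.0150). Other list medians counted as moved were those of glutamate receptors (0.18 thinned, 0.19 in cluster 2), GABA receptors (0.12 thinned), presynaptic genes (-0.13 thinned), calcium-binding genes (-0.12 thinned, 0.0831 without the mixed clusters) and secretory genes (-0.13 in cluster 3). Medians not counted as moved shifted too. In cluster 2 those of Wnt ligands and regulators (-0.38 over 4 genes), neuropeptide genes (-0.20) and axon injury genes (-0.22) lay lower than in all members. The ribosomal protein and immediate early medians stayed below 0 under each alternative run, but after thinning they rested on 11 and 2 genes, at -0.01 and -0.89.

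Of single genes, Bcas1 turned to -0.11 without called doublets and to -0.60 in cluster 3, Slc1a3 to -0.68 after thinning, and Chat to -0.70, Ano1 to -0.53 and F3 to -0.12 in cluster 3. Meis2 turned to 0.47 without the mixed clusters and to 0.26 in cluster 2, where Aldh1a1 turned to -0.0589 and Fam20a to -0.24. Within the clusters, all of these but Fam20a had under 8 UMIs in each library. The cause was not tested. Depth limits single genes: members of cluster 2 held 2027695 sham and 1689750 injury UMIs, and a gene with 50 UMIs there has a wide interval.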
